A study of Mus musculus with 6 samples.

Results

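Glucuronosyltransferases and sulfotransferases are the liver enzymes that attach a sugar acid or a sulfate group to drugs, hormones, bilirubin and bile acids. The genes described here are all rows of the deposited gene table whose symbol begins with Ugt1a, Ugt2a, Ugt2b, Ugt3a or Sult followed by a digit, which gave 41 of 24532 genes. Of these, 32 had a count in at least 3 libraries, and 29 passed the filter on low counts and entered the test, 18 Ugt and 11 Sult genes. The rule itself used symbols and detection only, but it was set with earlier results of these data known.

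The study asked how injected recombinant human cytoglobin (rhCYGB), an oxygen-binding globin protein, affects gene expression in injured mouse liver. All 6 mice were wild-type C57BL/6 animals that ate 0.1% DDC (3,5-diethoxycarbonyl-1,4-dihydrocollidine, which blocks heme synthesis and injures bile ducts) for 4 weeks. The rhCYGB group of 3 mice received 2 mg/kg of the protein 2 times a week during the final 2 weeks, and the vehicle group of 3 mice received normal saline. Tissue was collected 2 days after the final injection, and no mouse without DDC is among the libraries, so every value is from a DDC-fed mouse. The labels used here give no age or sex.

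In glucuronidation, UGT enzymes of the endoplasmic reticulum transfer glucuronic acid from UDP-glucuronic acid, and the products leave in bile or urine. In sulfation, cytosolic SULT enzymes transfer sulfate from PAPS (3'-phosphoadenosine 5'-phosphosulfate). The Ugt1a genes are unusual in that each has its own promoter and first exon, spliced to a set of last exons that all of them share, while the Ugt2b and Sult2a genes are clusters of close copies.

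Levels are given as CPM (estimated counts scaled to a common library size, with the library total corrected by TMM, edgeR's trimmed mean method) for comparing libraries, and as TPM (which also corrects for transcript length) for comparing genes. Values are listed for vehicle replicates 1 to 3 and then for rhCYGB replicates 1 to 3, each a different mouse, and ± is the SD over n = 3, with the vehicle mean first where 2 means are given. Total estimated counts were 58422095 to 72431373 per library, and 16290, 16040 and 15992 genes had a count with vehicle against 16060, 15542 and 14933 with rhCYGB. The TMM factors were 1.45, 1.07 and 1.18 for vehicle against 1.18, 0.744 and 0.630 for rhCYGB, so CPM values of rhCYGB replicates 2 and 3 lie well above their unscaled shares of the counts. Libraries also differed by transcript length, with slopes of log2 expression per doubling of length of 0.39, -0.03 and 0.05 for vehicle against 0.22, -0.34 and -0.29 for rhCYGB. In both measures rhCYGB replicate 1 lay within the vehicle range and apart from the other rhCYGB libraries, and its label was taken as given. Among the 29 tested genes, length and log2 fold change had a Spearman correlation of -0.37, and over all 14415 genes tested it was -0.41, both given as descriptions across genes. The Sult genes tested were short (median of the longest transcripts 1260 bases) and the Ugt genes were not (2796.5 bases, against 2814 for all genes tested).

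The sulfotransferase genes Sult1a1, Sult1e1, Sult2a1, Sult2a2 and Sult2a5 had higher mean levels in the rhCYGB livers, with the highest values in replicates 2 and 3. Not all Sult genes shared this, with log2 fold changes of -0.53 for Sult2a8, 0.05 for Sult2b1 and 0.16 for Sult1c2. The glucuronosyltransferases were divided. Mean levels in the vehicle and rhCYGB groups were 392 ± 137 and 1403 ± 848 CPM for Sult1a1 (phenols), 39.5 ± 42.0 and 319 ± 294 CPM for Sult1e1 (estrogen) and 21.8 ± 21.3 and 162 ± 113 CPM for Sult2a2 (hydroxysteroids). Ugt1a1, which conjugates bilirubin, was at 198 ± 32.9 and 189 ± 47.2 CPM. None of these differences passed the adjusted test. By edgeR's quasi-likelihood test none of the 29 genes passed an adjusted p of 0.05 (smallest 0.523), and the background was the same, with 0 of 14415 genes called (0%). At an unadjusted p under 0.05 there were 11 of the 29 (37.9%), all higher with rhCYGB, where all genes gave 8.12% in either direction, 6.06% higher and 2.06% lower. That split depended on the scaling, with 74.6% of such genes higher by TMM and 52.0% with upper-quartile factors, where 7 genes of these families were left, all higher. For 7 of 29 (24.1%) every rhCYGB library exceeded every vehicle library in CPM and for 0 it was the reverse, against 13.4% of all genes in either direction, 6.02% higher and 7.38% lower. On the TPM scale the groups did not overlap for 3 higher genes and 1 lower, where all genes gave 1.33% higher and 12.7% lower. The median log2 fold change of the 29 was 0.59 against -0.06 for all genes, and 21 of 29 were above 0 (72.4%, against 46.8% of all genes). That median depended on the scale: by limma on log2(TPM + 1) it was -0.21, where the median of all genes was -0.51. The Sult median was 1.57, and above 0 in all 16 alternatives (0.49 to 1.91). The Ugt median was 0.34 and turned to -0.39 on log2(TPM + 1), -0.40 on log2(TPM + 0.1) and -0.02 by limma-voom with sample quality weights.

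**Figure D1:**
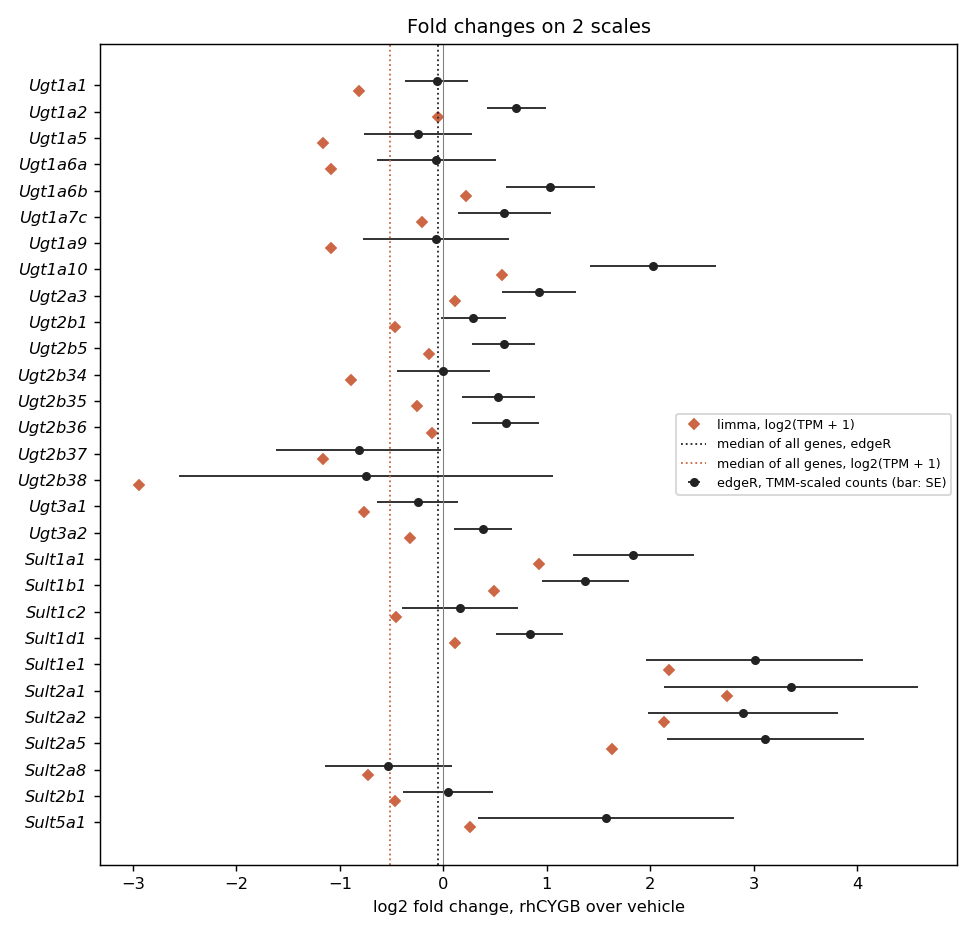
Log2 fold change of rhCYGB over vehicle for the 29 tested genes (horizontal axis), by edgeR on TMM-scaled counts (circles, bars show the SE) and by limma on log2(TPM + 1) (diamonds); dotted lines mark the median of all genes on each scale, -0.06 and -0.51. The Sult1 and Sult2a genes Sult1a1, Sult1b1, Sult1d1, Sult1e1, Sult2a1, Sult2a2 and Sult2a5 lie above 0 on both scales, while Ugt2b5 and Ugt2b36 lie above 0 on the first and below it on the second.

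In a bulk liver sample, fewer cells of a type and less RNA per cell cannot be told apart, and these enzymes are known chiefly from hepatocytes. Of 10 hepatocyte markers 10 were higher in CPM with rhCYGB (median log2 fold change 0.95), where 46.8% of all genes tested were higher. An edgeR unadjusted p under 0.05 was found for 3 (30%), against 8.12% of all genes. The summed level of the 10, most of it Alb, ran from 58737 to 100929.9 CPM in the vehicle livers and from 90130.3 to 204282 CPM in the rhCYGB livers. The rise depended on the scale. Mean TPM was lower with rhCYGB for Ttr (7293 and 6162 TPM), Serpina1c (3670 and 3630 TPM), Cps1 (1065 and 952 TPM) and Asgr1 (556 and 495 TPM). It was higher for the other hepatocyte markers. None of the 10 was at 0. Bile duct markers were higher in 3 of 10 (median log2 fold change -0.25). Their summed level was 990.2 to 1108 CPM in the vehicle livers and 239 to 627 CPM in the rhCYGB livers. In the vehicle livers that sum came mostly from 1 gene, so it does not give the level of the 10 as a set. Krt19, at 20.7 ± 1.65 and 31.7 ± 15.9 CPM, and Krt7, at 12.4 ± 3.06 and 16.5 ± 6.88 CPM, were among the 3 higher. In mean TPM both were lower with rhCYGB (32.6 and 26.7 TPM for Krt19, 17.8 and 12.5 TPM for Krt7). The other 7 were lower in CPM, among them Epcam (19.1 ± 7.86 and 12.2 ± 1.32 CPM) and Sox9 (11.7 ± 2.94 and 6.54 ± 3.00 CPM). Stellate cell and fibroblast markers were higher in 1 of 10, with summed levels of 929.8 to 1128 and 226 to 723 CPM. Macrophage and monocyte markers were higher in 4 of 10 and endothelial markers in 2 of 8, and 7 of 8 lymphocyte markers were under 1 TPM on average. The part of these cell types in the results below was not tested. Gut and kidney also express many Ugt and Sult genes. Of 8 gut markers 4 were tested, 2 higher and 2 lower, and their summed level was 22.0 to 60.1 CPM in the vehicle livers and 56.5 to 157 CPM in the rhCYGB livers. In TPM the sums overlapped, at 53.2, 89.0 and 116 (vehicle) against 119, 163 and 74.1 (rhCYGB). On average 6 of the 8 were under 1 TPM, so the sum does not give the level of the 8 as a set. The gut markers Cdx1, Cdx2 and Sis and the kidney markers Umod, Slc12a1, Aqp2 and Kap were at 0 in all 6 libraries, and the summed kidney list, 8 genes, did not exceed 0.0482 TPM in any library.

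Gene numbers and coordinates are those of the deposited tables, on mm10. Sult1a1 (gene 20887, chr7:126672870-126676357), the main phenol sulfotransferase, had the highest mean level of all 41 genes at 874 TPM. It was at 242, 426 and 509 CPM (vehicle) against 513, 1494 and 2202 CPM (rhCYGB). Every rhCYGB library lay above every vehicle library, although rhCYGB replicate 1 and vehicle replicate 3 were within 1% of each other (log2 fold change 1.84, SE 0.59, edgeR unadjusted p = 0.0159). Unscaled values kept that order, at 351, 453 and 599 unscaled CPM (vehicle) against 602, 1112 and 1387 unscaled CPM (rhCYGB), and so did TPM, a length-corrected level, at 497, 551 and 744 TPM (vehicle) against 808, 1171 and 1476 TPM (rhCYGB). DESeq2 called the gene (adjusted p = 0.0340).

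Sult1b1 (gene 56362, chr5:87513339-87538195), which sulfates thyroid hormones, was at 9.29, 12.4 and 15.6 CPM (vehicle) against 16.3, 33.4 and 47.1 CPM (rhCYGB). It was the other Sult gene whose groups did not overlap, again with rhCYGB replicate 1 next to vehicle replicate 3 (log2 fold change 1.37, SE 0.42, edgeR unadjusted p = 0.0132). Sult1d1 (gene 53315, chr5:87554650-87569006), which acts on catecholamines, was at 62.7, 79.0 and 114 CPM (vehicle) against 166, 113 and 177 CPM (rhCYGB). Here rhCYGB replicate 2 lay just below vehicle replicate 3 and the other rhCYGB libraries lay above it (log2 fold change 0.84, SE 0.32, edgeR unadjusted p = 0.0357). Sult1c2 was at 1.68, 3.35 and 2.69 CPM (vehicle) against 2.65, 4.82 and 1.14 CPM (rhCYGB) and showed no separation (log2 fold change 0.16, SE 0.56, edgeR unadjusted p = 0.781).

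Sult1e1 (gene 20860, chr5:87575968-87591611), the estrogen sulfotransferase, was at 14.0, 16.6 and 88.0 CPM (vehicle) against 56.2, 265 and 637 CPM (rhCYGB). Its range within the vehicle group was wide, with vehicle replicate 3 above rhCYGB replicate 1, and the highest values were in rhCYGB replicates 2 and 3 (log2 fold change 3.01, SE 1.05, edgeR unadjusted p = 0.0230; DESeq2 adjusted p = 0.0190). The group means were 39.5 ± 42.0 and 319 ± 294 CPM, so the SD exceeded the vehicle mean. The log2 fold change was 2.03 without rhCYGB replicate 3, 4.38 without vehicle replicate 3 and 1.29 with the length slope as a covariate.

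The Sult2a enzymes add sulfate to hydroxysteroids and bile acids, and in mice Sult2a1 and its close copies are known as female-biased liver genes. Sult2a1 (gene 20859, chr7:13796246-13837410) was at 3.47, 1.40 and 22.4 CPM (vehicle) against 14.4, 89.6 and 177 CPM (rhCYGB). Sult2a2 (gene 100043194, chr7:13733506-13779637) was at 10.4, 8.60 and 46.4 CPM (vehicle) against 34.7, 201 and 250.2 CPM (rhCYGB). Sult2a5 (gene 434264, chr7:13623967-13670807) was at 0.615, 0.411 and 2.05 CPM (vehicle) against 1.46, 10.8 and 14.4 CPM (rhCYGB). In Sult2a1, Sult2a2, Sult2a5 and Sult1e1 alike, vehicle replicate 3 exceeded rhCYGB replicate 1 and rhCYGB replicates 2 and 3 were the highest, so the groups overlapped in all 4 genes. The 3 Sult2a genes had the values log2 fold change 3.37, SE 1.23, edgeR unadjusted p = 0.0278 for Sult2a1, log2 fold change 2.89, SE 0.92, edgeR unadjusted p = 0.0153 for Sult2a2 and log2 fold change 3.11, SE 0.95, edgeR unadjusted p = 0.0128 for Sult2a5. Their log2 fold changes were above 0 under all 16 alternatives, from 1.37 to 5.26. Without vehicle replicate 3 they were 5.26 for Sult2a1, 4.09 for Sult2a2 and 4.10 for Sult2a5. With the length slope as a covariate they fell to 1.51, 1.37 and 1.40 in the same order (edgeR unadjusted p = 0.248, 0.135 and 0.155). DESeq2 called Sult2a2 (adjusted p = 0.0151) and gave Sult2a1 and Sult2a5 no adjusted p, with unadjusted DESeq2 p-values of 0.00041 and 0.000127.

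The Sult2a copies are similar enough for reads to be divided uncertainly among them. In the GENCODE transcripts, 34.6% of the 100-base windows of Sult2a2 also occur in another of the 41 genes, against 16.6% for Sult2a5 and 11.4% for Sult2a1. Summed over Sult2a1 to Sult2a6, a value that depends less on how reads are divided within that group, the level was 50.7, 23.7 and 173 (vehicle) against 135, 397 and 482 (rhCYGB) in TPM. The libraries kept the order seen in the single genes. The remaining members of this group were near the limit of detection. Sult2a3 had 0 to 5 estimated counts per library, Sult2a4 had 8 in rhCYGB replicate 2 alone, and Sult2a6 had 0 in all 6 libraries.

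Sult2a8, which sulfates bile acids in mouse liver, did not share this pattern. It was at 1.3, 3.69 and 4.05 CPM (vehicle) against 3.48, 1.84 and 0.903 CPM (rhCYGB) (log2 fold change -0.53, SE 0.62, edgeR unadjusted p = 0.417), with the lowest value in rhCYGB replicate 3. Its counts were assigned to the shorter model (2097 bases) in all 3 vehicle libraries and rhCYGB replicate 1, at 110, 260, 284 and 267 estimated counts with 0 on the other model. In rhCYGB replicates 2 and 3 they were assigned to the longer model (2147 bases), at 99 and 34 with 0 on the first. An assignment of all counts to 1 model in each library is the assembler's, and whether it marks a change of start site was not tested.

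Sult2b1, which sulfates cholesterol and pregnenolone, was at 1.14, 1.11 and 0.969 CPM (vehicle) against 0.678, 1.37 and 1.27 CPM (rhCYGB) (log2 fold change 0.05, SE 0.43, edgeR unadjusted p = 0.919). On the TPM scale it was the 1 tested member whose groups did not overlap in the lower direction, at 2.80, 1.73 and 1.71 TPM (vehicle) against 1.28, 1.29 and 1.03 TPM (rhCYGB). The direction thus turned with the scale, to a log2 fold change of -0.47 on log2(TPM + 1). Sult5a1 was near the limit of detection with 8, 31 and 0 estimated counts (vehicle) against 21, 18 and 38 estimated counts (rhCYGB). Sult2a7 (0 to 9 estimated counts per library) and Sult4a1, a brain-enriched member (0 to 18), had counts in 3 and 5 libraries but did not enter the test. Sult3a1, an amine sulfotransferase that is female-biased in mouse liver, had 12 estimated counts in rhCYGB replicate 2 and 0 elsewhere. Sult1c1, Sult3a2, Sult6b1 and Sult6b2 were listed at 0 in all 6 libraries.

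**Figure D2:**
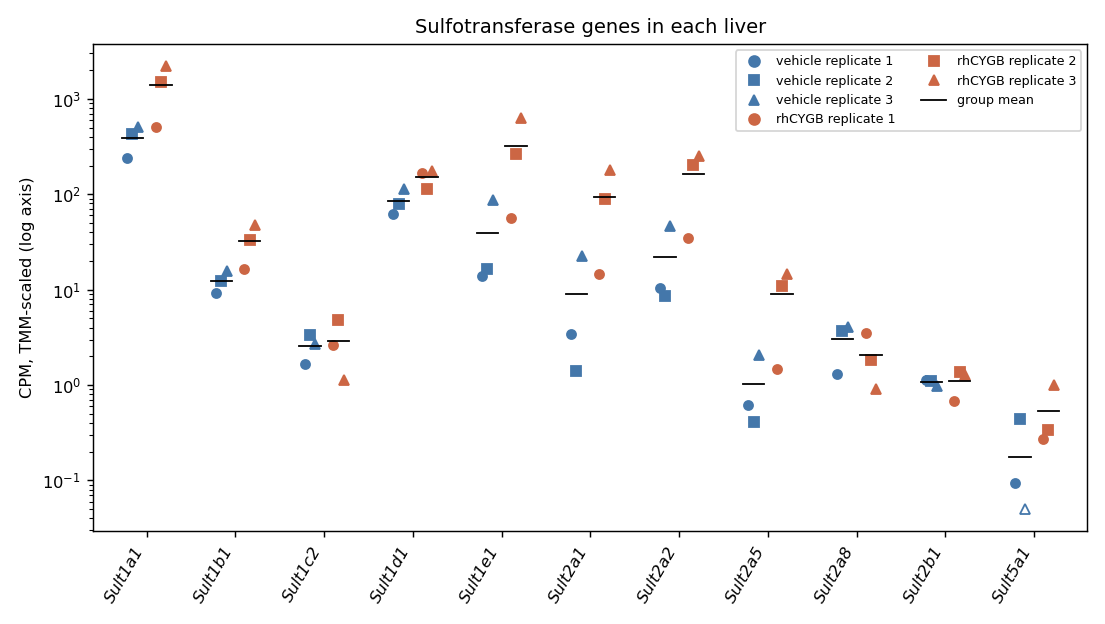
CPM (log axis) of the 11 tested Sult genes in each mouse; symbols give the replicate, colours the group and short lines the group mean, and an open symbol marks a value below 0.05 CPM drawn at that level. Sult1a1 and Sult1b1 separate the groups, while in Sult1e1, Sult2a1, Sult2a2 and Sult2a5 vehicle replicate 3 lies above rhCYGB replicate 1.

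The Ugt1a genes outside the naming rule (Ugt1a1, Ugt1a5, Ugt1a6a, Ugt1a7c and Ugt1a9) were added after their values were seen, to cover the locus. The Ugt1a locus (chromosome 1, 88055411 to 88220002 on mm10) holds 8 measured genes. Ugt1a1, the enzyme that conjugates bilirubin, was at 216, 159.7 and 217 CPM (vehicle) against 240.0, 147 and 180.1 CPM (rhCYGB). The groups overlapped throughout and the means were 198 ± 32.9 and 189 ± 47.2 CPM (log2 fold change -0.06, SE 0.30, edgeR unadjusted p = 0.837). Its mean of 112 TPM was below that of Ugt1a6b, at 217 TPM, and above those of the other Ugt1a genes.

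Ugt1a6b (gene 394435, chr1:88103257-88218998), a phenol-conjugating enzyme, was at 163, 282 and 209 CPM (vehicle) against 243, 453 and 647 CPM (rhCYGB). Replicates 2 and 3 of rhCYGB were the highest and rhCYGB replicate 1 lay within the vehicle range (log2 fold change 1.04, SE 0.43, edgeR unadjusted p = 0.0463). Its near copy Ugt1a6a was at 79.2, 61.7 and 81.5 CPM (vehicle) against 139, 47.1 and 25.8 CPM (rhCYGB), with rhCYGB replicate 1 highest and rhCYGB replicates 2 and 3 lowest (log2 fold change -0.07, SE 0.58, edgeR unadjusted p = 0.911). These 2 genes share 71.2% of their 100-base windows (as a share of Ugt1a6b), so the division of reads between them is uncertain.

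Ugt1a5 and Ugt1a9 had their extreme values in the same rhCYGB libraries as Ugt1a6a. Ugt1a5 was at 52.4, 42.1 and 44.6 CPM (vehicle) against 75.5, 22.7 and 19.3 CPM (rhCYGB) (log2 fold change -0.24, SE 0.52, edgeR unadjusted p = 0.656). Ugt1a9 was at 54.7, 72.8 and 140.4 CPM (vehicle) against 177, 52.0 and 25.8 CPM (rhCYGB) (log2 fold change -0.07, SE 0.71, edgeR unadjusted p = 0.923). In both genes rhCYGB replicate 1 was highest and rhCYGB replicates 2 and 3 were lowest, so the rhCYGB libraries departed from the vehicle range in both directions. With rhCYGB replicate 1 left out, edgeR called Ugt1a5 (log2 fold change -1.15, adjusted p = 0.0215) and Ugt1a6a (-1.03, adjusted p = 0.0488) lower and Ugt1a6b (1.33, adjusted p = 0.0313) higher. That fit called 3391 of all 14647 genes.

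Ugt1a10 (gene 394430, chr1:88055411-88220002) had the smallest p of the 29 genes. It was at 1.55, 1.5 and 1.18 CPM (vehicle) against 2.16, 4.12 and 11.1 CPM (rhCYGB) (log2 fold change 2.03, SE 0.61, edgeR unadjusted p = 0.0117), a low level with every rhCYGB library above every vehicle library and rhCYGB replicate 3 far above the rest. Without rhCYGB replicate 3 the log2 fold change was 1.15, and on log2(TPM + 1) it was 0.56. Ugt1a2 (gene 22236, chr1:88200611-88220002) was at 8.07, 9.08 and 9.92 CPM (vehicle) against 12, 12.7 and 19.5 CPM (rhCYGB) and its groups did not overlap (log2 fold change 0.71, SE 0.28, edgeR unadjusted p = 0.0401). Its direction turned on the TPM scale, to a log2 fold change of -0.05. Ugt1a7c was at 4.65, 3.94 and 6.13 CPM (vehicle) against 4.33, 5.53 and 12.4 CPM (rhCYGB) (log2 fold change 0.59, SE 0.45, edgeR unadjusted p = 0.230), with an overlap of the groups.

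As a share of the summed Ugt1a TPM, Ugt1a6b held 35.6%, 53.2% and 37.1% for vehicle against 34.5%, 68.7% and 75.7% for rhCYGB. Ugt1a1 held 33.5%, 21.4% and 27.3% for vehicle against 24.2%, 15.8% and 14.9% for rhCYGB. Ugt1a9 held 8.51%, 9.78% and 17.7% for vehicle against 18.0%, 5.62% and 2.15% for rhCYGB. Ugt1a6b thus took most of the locus in rhCYGB replicates 2 and 3 and a vehicle-like share in rhCYGB replicate 1. In the deposited transcript table the Ugt1a6b model ends at position 88218998, 1004 bases before the common end of the other 7 models, and is 2293 bases long where those are 3206 to 3302 bases. The rhCYGB replicates 2 and 3 are also the libraries with the lowest length slopes, -0.34 and -0.29, and the part of model length in this shift was not tested. In TPM, Ugt1a6b itself was at 199.9, 218 and 183 TPM (vehicle) against 229, 212 and 259 TPM (rhCYGB), with the groups overlapping. Summed over the 8 genes the locus was at 562, 410.2 and 492 (vehicle) against 663, 308 and 343 (rhCYGB) in TPM.

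**Figure D3:**
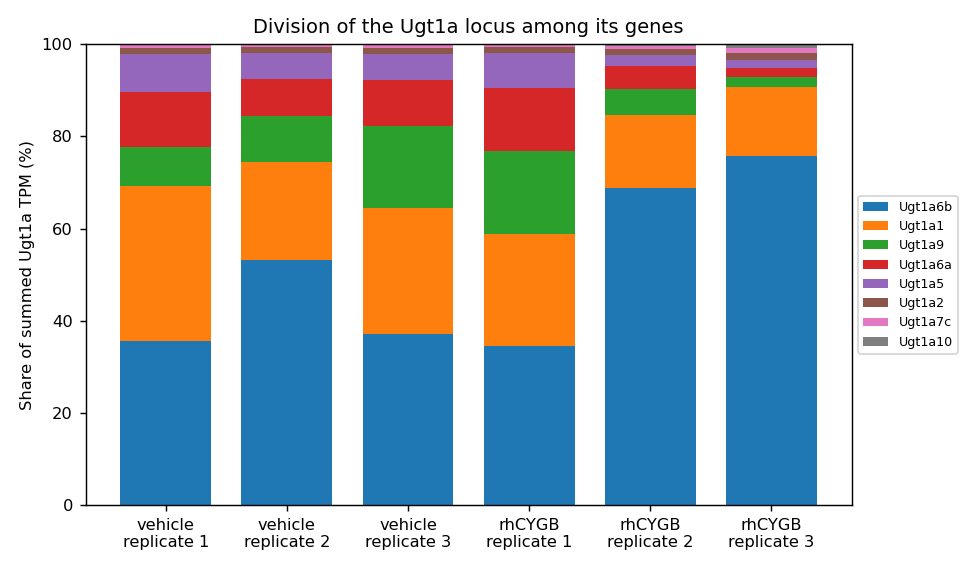
Share of the summed Ugt1a TPM held by each of the 8 genes (vertical axis, percent) in each mouse. Ugt1a6b holds 34.5% to 53.2% in the vehicle libraries and rhCYGB replicate 1, and 68.7% and 75.7% in rhCYGB replicates 2 and 3.

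Because each Ugt1a gene has its own promoter, the 120 bases before the start of 4 of them are shown, Ugt1a6a and Ugt1a9, alike in which rhCYGB libraries held their extreme values, Ugt1a1 as the bilirubin enzyme and Ugt1a10 as the gene with the smallest p, with those of Ugt2a3, Sult1d1 and Sult2a5 from the other families. Sequences are from RefSeq on GRCm38.p6, 5' to 3' on the gene's strand, and capitals mark the letters GTTAAT or their reverse complement, part of the site bound by HNF1, a liver transcription factor. The promoters shown were chosen after the matches were seen.
Ugt1a1: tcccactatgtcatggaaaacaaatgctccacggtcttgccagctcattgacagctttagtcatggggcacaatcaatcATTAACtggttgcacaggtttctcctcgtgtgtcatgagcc
Ugt1a6a: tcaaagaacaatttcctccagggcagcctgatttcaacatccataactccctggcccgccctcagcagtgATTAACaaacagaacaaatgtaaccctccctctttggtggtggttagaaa
Ugt1a9: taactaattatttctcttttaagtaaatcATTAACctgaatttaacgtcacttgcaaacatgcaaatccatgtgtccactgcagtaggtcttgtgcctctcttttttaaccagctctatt
Ugt1a10: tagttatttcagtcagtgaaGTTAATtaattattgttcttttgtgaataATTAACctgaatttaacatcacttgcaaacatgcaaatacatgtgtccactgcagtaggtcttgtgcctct
Ugt2a3: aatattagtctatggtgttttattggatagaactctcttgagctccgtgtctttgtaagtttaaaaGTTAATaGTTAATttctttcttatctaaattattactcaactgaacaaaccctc
Sult1d1: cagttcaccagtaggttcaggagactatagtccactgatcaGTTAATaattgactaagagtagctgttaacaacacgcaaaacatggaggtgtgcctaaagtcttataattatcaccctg
Sult2a5: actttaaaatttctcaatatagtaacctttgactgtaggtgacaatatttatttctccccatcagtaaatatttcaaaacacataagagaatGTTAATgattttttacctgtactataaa
These lie at chr1:88211839-88211958, plus strand (Ugt1a1), chr1:88134689-88134808, plus strand (Ugt1a6a), chr1:88070659-88070778, plus strand (Ugt1a9), chr1:88055291-88055410, plus strand (Ugt1a10), chr5:87337196-87337315, minus strand (Ugt2a3), chr5:87569007-87569126, minus strand (Sult1d1) and chr7:13623847-13623966, plus strand (Sult2a5).

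Of the 29 tested genes 25 matched a promoter in the RefSeq table, and Sult2a1, Sult2a2, Ugt1a6b and Ugt3a2 had no entry. In the 250 bases before the start, searched on both strands, GTTAAT occurred in 9 of the 25 (36%), against 6.52% of 27025 promoters of the same length. The 9 were Sult1a1, Sult1d1, Sult2a5, Ugt1a1, Ugt1a6a, Ugt1a9, Ugt1a10, Ugt2a3 and Ugt3a1, and they include genes of opposite order across the libraries. AGGTCA, the core of many nuclear receptor sites, occurred in 9 of 25 (36%, against 13.8%), TTCNNNGAA, the STAT5 motif, in 1 (4%, against 7.18%), and TGACNNNGC, the core of the antioxidant response element, in 0 of 25 (10.1% of all). The 1 gene with TTCNNNGAA was Ugt1a6a. Each gene was counted by the first promoter listed for it, and Sult2a8, not counted with AGGTCA, holds it at 2 positions in its other promoter entry. No matches to different motifs overlapped. Close copies share letters by descent, so these counts are not of independent promoters, and a match describes letters, not a bound site.

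Ugt2a3 (gene 72094, chr5:87324972-87337195), which conjugates bile acids and other substrates, was at 109, 143 and 145 CPM (vehicle) against 178, 204 and 370.3 CPM (rhCYGB). The groups did not overlap in CPM (log2 fold change 0.92, SE 0.36, edgeR unadjusted p = 0.0356), but they did in TPM, at 144, 119 and 137 TPM (vehicle) against 181, 103 and 161 TPM (rhCYGB). Ugt2a1 and Ugt2a2, which are known from olfactory tissue, were at 0 in all 6 libraries.

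The Ugt2b enzymes, which conjugate steroids, bile acids and drugs, held the most abundant genes of the 41 after Sult1a1. Ugt2b5 (gene 22238, chr5:87124947-87140340), at a mean of 438 TPM, was at 304, 425 and 458 CPM (vehicle) against 578, 594 and 609 CPM (rhCYGB). Ugt2b36 (gene 231396, chr5:87065927-87092555), at 423 TPM, was at 274, 412 and 463 CPM (vehicle) against 537, 601 and 608 CPM (rhCYGB). Groups did not overlap for either gene in CPM (log2 fold change 0.59, SE 0.30, edgeR unadjusted p = 0.0930 for Ugt2b5 and log2 fold change 0.60, SE 0.32, edgeR unadjusted p = 0.101 for Ugt2b36). In TPM the order changed, with 451, 398 and 484 TPM (vehicle) against 659, 337 and 296 TPM (rhCYGB) for Ugt2b5, the highest value in rhCYGB replicate 1 and the lowest in rhCYGB replicates 2 and 3. By limma on log2(TPM + 1) their log2 fold changes were -0.13 and -0.11.

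Ugt2b34 (gene 100727, chr5:86889770-86906937), the next in abundance among the Ugt2b genes, was at 287, 261 and 336 CPM (vehicle) against 505, 200.2 and 179 CPM (rhCYGB). Its group means were 295 ± 38.4 and 295 ± 182 CPM, nearly equal, with rhCYGB replicate 1 the highest library and rhCYGB replicates 2 and 3 the lowest (log2 fold change 0.00, SE 0.45, edgeR unadjusted p = 0.999). Ugt2b35 was at 143, 111 and 162 CPM (vehicle) against 268, 124 and 209 CPM (rhCYGB), with rhCYGB replicate 1 highest and vehicle replicate 2 lowest (log2 fold change 0.53, SE 0.35, edgeR unadjusted p = 0.174). Ugt2b1 was at 80.5, 115 and 115 CPM (vehicle) against 173, 110.5 and 96.4 CPM (rhCYGB) (log2 fold change 0.29, SE 0.32, edgeR unadjusted p = 0.384), also highest in rhCYGB replicate 1.

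Ugt2b38 (gene 100559, chr5:87409940-87424203) had a wide range and was singled out after its values were seen. It was at 2424, 1519 and 1860 estimated counts (vehicle) against 3480, 12 and 0 estimated counts (rhCYGB). In CPM these were 28.7, 21.5 and 26.5 for vehicle against 45.4, 0.223 and 0 for rhCYGB. The gene was thus expressed at the highest level in rhCYGB replicate 1, at a narrow range in the vehicle livers, and at or near 0 in the other 2 rhCYGB livers (log2 fold change -0.75, SE 1.81, edgeR unadjusted p = 0.691). The edgeR fold change rests on rhCYGB replicate 1. Without that library it was -7.66 (edgeR adjusted p = 0.0177), and by limma-voom with quality weights, it was -6.74 (adjusted p = 0.0163). These 2 fits called 3391 of 14647 and 4323 of 14415 genes. Ugt2b37, whose promoter was the most like it of the 3 compared below, was at 3.37, 8.75 and 3.41 CPM (vehicle) against 5.57, 2.69 and 0.505 CPM (rhCYGB) (log2 fold change -0.82, SE 0.80, edgeR unadjusted p = 0.338), with its lowest value also in rhCYGB replicate 3.

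The 120 bases before the start of Ugt2b38 and of 3 other Ugt2b genes are shown because their levels differed in order across the libraries while the sequences are alike around AGGTCA. They were chosen after the matches were seen. Capitals mark AGGTCA, and sequences are from RefSeq on GRCm38.p6, 5' to 3' on the gene's strand.
Ugt2b38: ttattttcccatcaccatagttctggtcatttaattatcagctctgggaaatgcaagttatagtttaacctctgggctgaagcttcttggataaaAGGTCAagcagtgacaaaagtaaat
Ugt2b37: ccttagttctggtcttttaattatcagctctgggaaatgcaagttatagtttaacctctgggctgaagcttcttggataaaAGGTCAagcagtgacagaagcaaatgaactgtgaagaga
Ugt2b5: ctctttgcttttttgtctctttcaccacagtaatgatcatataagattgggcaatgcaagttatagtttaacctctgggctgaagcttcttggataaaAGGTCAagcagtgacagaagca
Ugt2b36: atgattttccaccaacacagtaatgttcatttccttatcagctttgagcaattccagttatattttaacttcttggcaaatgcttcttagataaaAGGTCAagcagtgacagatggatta
Their positions are chr5:87424204-87424323, minus strand (Ugt2b38), chr5:87254789-87254908, minus strand (Ugt2b37), chr5:87140341-87140460, minus strand (Ugt2b5) and chr5:87092556-87092675, minus strand (Ugt2b36). Over the aligned part of the 250 bases, Ugt2b38 was 94.1% identical to Ugt2b37, 88.3% to Ugt2b5 and 66.8% to Ugt2b36. All 4 hold AGGTCA close to the start, the genes with steady CPM in rhCYGB replicates 2 and 3 (Ugt2b5 and Ugt2b36) as well as those without (Ugt2b37 and Ugt2b38). In the transcripts, 24.2% of the 100-base windows of Ugt2b38 also occur in Ugt2b5, so a part of its reads could be assigned to either.

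Ugt3a1 and Ugt3a2 use UDP-N-acetylglucosamine and other sugars in place of UDP-glucuronic acid. Ugt3a2 was at 57.2, 101 and 78.9 CPM (vehicle) against 107, 90.2 and 113 CPM (rhCYGB) (log2 fold change 0.38, SE 0.28, edgeR unadjusted p = 0.215), and Ugt3a1 was at 4.98, 9.28 and 6.29 CPM (vehicle) against 8.24, 5.12 and 3.93 CPM (rhCYGB) (log2 fold change -0.25, SE 0.39, edgeR unadjusted p = 0.549). The groups overlapped in both. Ugt3a2 was the more abundant, with a mean of 70.6 TPM against 5.17 TPM.

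**Figure D4:**
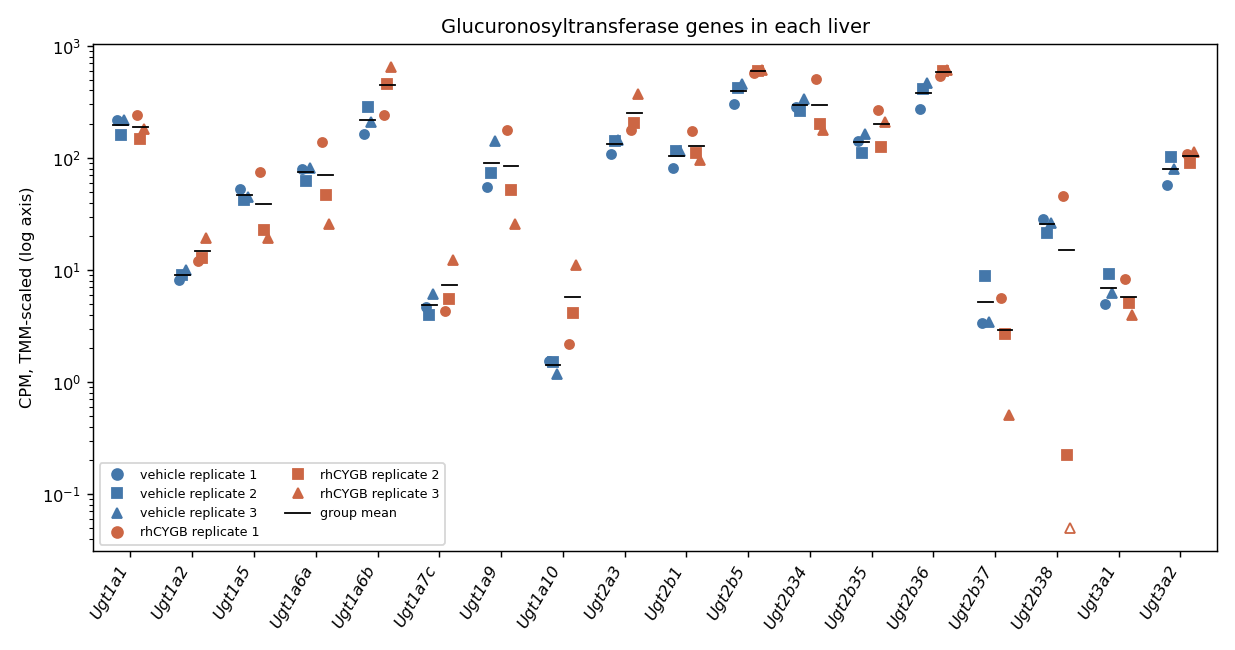
CPM (log axis) of the 18 tested Ugt genes in each mouse; symbols give the replicate, colours the group and short lines the group mean, and an open symbol marks a value below 0.05 CPM drawn at that level. Ugt1a2, Ugt1a10, Ugt2a3, Ugt2b5 and Ugt2b36 separate the groups, and Ugt2b38 drops from 45.4 CPM in rhCYGB replicate 1 to 0.223 and 0 CPM in rhCYGB replicates 2 and 3.

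Ordered by mean TPM over all 6 libraries, Sult1a1 led with 26.4% of the summed level of the 41 genes, followed by Ugt2b5 (13.6%), Ugt2b36 (13.1%), Ugt1a6b (6.78%), Ugt2b34 (5.76%), Sult1e1 (4.66%), Ugt2a3 (4.34%) and Sult2a2 (4.31%). These places pool groups whose shares differed. Sult1e1 held 1.10%, 0.976% and 4.24% for vehicle against 2.31%, 7.13% and 12.2% for rhCYGB, and Sult2a2 held 1.39%, 0.858% and 3.81% for vehicle against 2.42%, 9.23% and 8.16% for rhCYGB, both highest in rhCYGB replicates 2 and 3. The share of Sult1a1 was 17.5%, 23.0% and 22.6% for vehicle against 19.3%, 37.1% and 38.8% for rhCYGB. Neighbours such as Ugt2b5 and Ugt2b36, at 438 and 423 TPM, did not differ beyond the spread of either over the libraries. The summed Sult level was 671, 675 and 1173 (vehicle) against 1211, 1864 and 2509 (rhCYGB) in TPM, higher in each rhCYGB library than in any vehicle library, although rhCYGB replicate 1 and vehicle replicate 3 were close. Summed Ugt levels were 2165, 1722 and 2121 (vehicle) against 2965, 1295 and 1289 (rhCYGB) in TPM, with rhCYGB replicate 1 highest and rhCYGB replicates 2 and 3 lowest.

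The genes that supply the donor molecules showed no shared direction. Of 6 genes for the making and transport of UDP-glucuronic acid, 3 were higher and 3 lower (median log2 fold change 0.03). Over all genes tested 46.8% were higher and 8.12% had an edgeR unadjusted p under 0.05, against 1 of the 6 here (16.7%). That was Ugp2, which makes UDP-glucose, at 261, 233 and 330.1 CPM (vehicle) against 419, 549.9 and 404 CPM (rhCYGB) (log2 fold change 0.74, SE 0.31, edgeR unadjusted p = 0.0447). Ugdh, which oxidises UDP-glucose to UDP-glucuronic acid, was at 362, 324 and 421 CPM (vehicle) against 615, 383 and 277 CPM (rhCYGB) and overlapped between the groups. Slc35b4, a nucleotide sugar transporter with the next smallest p, was at 18.4 ± 3.07 and 14.9 ± 2.29 CPM.

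For PAPS, 4 of 7 tested genes were higher and 3 lower (median 0.03), and none had an unadjusted p under 0.05. Papss2, the main liver PAPS synthase, was at 113, 111 and 125 CPM (vehicle) against 183, 79.9 and 93.5 CPM (rhCYGB). Papss1 was at 28.3, 20.7 and 18.0 CPM (vehicle) against 18.5, 8.52 and 3.61 CPM (rhCYGB) (log2 fold change -1.13, SE 0.56, edgeR unadjusted p = 0.0806), lowest in rhCYGB replicates 2 and 3. Slc35b2, the PAPS carrier of the Golgi, was at 42.2 ± 4.62 and 67.4 ± 24.6 CPM (log2 fold change 0.68, SE 0.32, edgeR unadjusted p = 0.0740). Of 4 deconjugating enzymes 1 was higher and 3 lower, with Gusb, the beta-glucuronidase, at 74.0 ± 18.1 and 88.0 ± 19.4 CPM, Arsa at 57.6 ± 8.48 and 39.1 ± 25.9 CPM and Arsb at 35.5 ± 1.26 and 29.6 ± 13.1 CPM.

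Conjugates leave the hepatocyte through pumps, and 4 of 5 listed exporters were higher (80%, against 46.8% of all genes, median 0.38). An edgeR unadjusted p under 0.05 was found for 1 of the 5 (20%, against 8.12% of all genes). Abcc3, which exports glucuronides into blood, was at 171, 196 and 209 CPM (vehicle) against 264, 329 and 478 CPM (rhCYGB) without overlap of the groups (log2 fold change 0.89, SE 0.32, edgeR unadjusted p = 0.0261). In TPM its groups overlapped, at 96.2, 69.5 and 83.5 TPM (vehicle) against 114, 70.7 and 87.7 TPM (rhCYGB). Abcc6 was at 60.4 ± 6.15 and 89.0 ± 20.7 CPM and Abcc2, the canalicular conjugate pump, at 198 ± 64.9 and 256 ± 74.1 CPM. Among 13 other conjugation enzymes 9 were higher (69.2%, median 0.57), 4 at an edgeR unadjusted p under 0.05 (30.8%, against 8.12% of all genes). Baat, which joins bile acids to taurine or glycine, was at 119.7, 161 and 161 CPM (vehicle) against 222, 257 and 403 CPM (rhCYGB), and Gnmt, a glycine methyltransferase, at 1081 ± 471 and 5171 ± 4429 CPM. As3mt, Nnmt, Gnmt and Baat were the 4.

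Of 15 nuclear receptors and other factors known to act on these enzymes 11 were higher (73.3%, against 46.8% of all genes, median 0.39). An edgeR unadjusted p under 0.05 was found for 2 (13.3%), near the 8.12% of all genes. Nr1i3, the receptor CAR, which responds to drugs and bilirubin, was at 44.1, 37.9 and 45.7 CPM (vehicle) against 50.7, 207 and 279 CPM (rhCYGB). As in the Sult2a genes, rhCYGB replicates 2 and 3 were far above the rest, and rhCYGB replicate 1 lay just above the vehicle range in CPM (log2 fold change 2.07, SE 0.58, edgeR unadjusted p = 0.00816). In TPM rhCYGB replicate 1 lay within that range, at 88.2, 47.8 and 65.1 TPM (vehicle) against 78.1, 158 and 183 TPM (rhCYGB). Nfe2l2, which encodes NRF2, was lower in CPM in every rhCYGB library, by a small margin in replicate 1, at 120.5, 121 and 143 CPM (vehicle) against 119, 61.0 and 51.3 CPM (rhCYGB) (log2 fold change -0.73, SE 0.36, edgeR unadjusted p = 0.0801). In TPM its groups overlapped, at 137, 87.5 and 117 TPM (vehicle) against 105, 27.7 and 21.9 TPM (rhCYGB). Hnf4a, a factor of hepatocyte identity, was the most abundant of the list, at 379 ± 39.3 and 663 ± 289.6 CPM.

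The Sult2a genes are sex-biased in mice, so markers of that bias are given beside them. Of 10 tested female-biased genes 7 were higher (70%, median 0.43), 4 at an edgeR unadjusted p under 0.05 (40%). Of 9 tested male-biased genes 5 were higher (55.6%, median 0.53), 1 at that p (11.1%). Over all genes these shares were 46.8% and 8.12%. For 4 of the 10 female-biased genes (40%) every rhCYGB library exceeded every vehicle library in CPM, and for 0 it was the reverse. Among the 9 male-biased genes these counts were 1 (11.1%) and 0. Over all genes tested, 6.02% had groups apart in the higher direction and 7.38% in the lower. Cyp3a44, named here for its values, was 1 of the 3 lower genes of the female-biased list and so went against most of it. It was at 32.6, 29.7 and 36.2 CPM (vehicle) against 66.5, 8.85 and 0.239 CPM (rhCYGB), the same order of rhCYGB libraries as Ugt2b38. Cyp3a41b, another gene of the list, was at 0 in all 6 libraries. Whether the factors that set sex-biased expression took part in the Sult2a values was not tested.

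With 1 library left out the calls moved. Without rhCYGB replicate 1 edgeR called 11 of 30 genes of these families (8 higher, 3 lower), where it called 3391 of all 14647 genes. Leaving out any other single library gave 0. The 8 were Sult1a1, Sult1b1, Sult1e1, Sult2a2, Sult2a5, Ugt1a6b, Ugt1a10 and Ugt2a3, and the 3 were Ugt1a5, Ugt1a6a and Ugt2b38. At an unadjusted p under 0.05 the count of 11 was 3 when vehicle replicate 1 was left out, 4 when rhCYGB replicate 3 was and 5 when vehicle replicate 2 was. DESeq2 called 3 of these genes (Sult1a1, Sult1e1 and Sult2a2, all higher) among 65 of the 1558 genes to which it gave an adjusted p.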

How the data were processed

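Liver mRNA of 6 mice, 3 per group, was sequenced. The labels name each mouse by its own number, and replicates were numbered 1 to 3 in order of deposition, which pairs no animals. Per the labels' protocols, libraries were made with the TruSeq Stranded mRNA kit and sequenced from both ends. The submitters' processing notes list StringTie 1.3.4d, HISAT2 2.1.0, FastQC 0.11.7 and the build mm10, without their roles. How strand was counted, and with which annotation release, is not given in the sources used here, which leaves genes with an antisense or overlapping partner uncertain.

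The authors deposited estimated counts and FPKM values per gene and per transcript. The deposited counts were whole numbers equal to FPKM times transcript length times 1 constant per library (100% of transcripts with at least 200 counts within 1%), so they are the assembler's estimates, including its division of reads among copies. Dividing each FPKM by its library sum gave TPM.

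Counts were tested in R 4.3.3 with edgeR 4.0.16 (filterByExpr, TMM, robust dispersions, quasi-likelihood F test) and Benjamini-Hochberg adjustment over 14415 genes, at an adjusted p of 0.05. Standard errors were computed as |log2 fold change| / sqrt(F). The test was also run on simulated counts, drawn independently for each gene. They hold neither the length slopes nor the departure of rhCYGB replicate 1, so they cannot show how the test behaves under these. Alternatives used limma 3.58.1, DESeq2 1.42.0 (NA adjusted p-values stay NA), other scalings and filters, the length slope as a covariate, pseudocounts of 1 and 0.1 on TPM, and each library left out.

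Members and gene lists were chosen with earlier results of these data known. Values per library are given for the 12 smallest p-values, the 8 highest mean TPM and genes without overlap of the groups, with other members added after their values were seen. From each pathway list the 2 smallest p-values and the most abundant gene were taken, with some others named for their role. Some list genes that this choice takes are not reported here. Estimated counts are not independent reads, so no counting interval is given and the replicate spread sets the precision. Coordinates are those of the deposited transcript table on mm10, and promoters those of GRCm38.p6, the same assembly. Promoters were scanned for 4 motifs.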

Additional observations from a re-analysis of the deposited data

How the results depend on the processing

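No gene of these families passed an adjusted p of 0.05 by edgeR, also at 0.1, and the count changed with the test and with 1 library. DESeq2 called 3 of them among 65 over all genes (1558 had an adjusted p). With sample quality weights limma-voom called 10 of 29 (8 higher, 2 lower), where it called 4323 of all 14415 genes. Over the libraries left out in turn the count ran from 0 to 11, with 0 to 3391 over all genes. Only without rhCYGB replicate 1 was it above 0, at 11 of 30 fitted, against 3391 of 14647 genes. The count of 11 genes at an unadjusted p under 0.05, all higher, became 7 with upper-quartile factors, 5 on log2(TPM + 1) and on log2(TPM + 0.1), 4 with the length slope as covariate and 19 (13 higher, 6 lower) with quality weights. With 1 library left out it ran from 3 to 16, and the 16, without rhCYGB replicate 1, were 11 higher and 5 lower. The median log2 fold change of the 29 tested genes, 0.59, became 0.34 with quality weights, -0.21 on log2(TPM + 1) and -0.26 on log2(TPM + 0.1), where the medians of all genes were -0.07, -0.51 and -0.75. With 1 library left out it ran from 0.42 to 0.68. On log2(TPM + 1) and log2(TPM + 0.1) the direction turned for Ugt1a2 (-0.050 and -0.062), Ugt2b36 (-0.11 and -0.11), Ugt2b5 (-0.13 and -0.13) and Ugt2b34 (-0.89 and -0.90). Ugt2b34, at 0.00 by edgeR, also turned with upper-quartile factors (-0.11), without a low-count filter (-0.0070), with at least 1 CPM in 3 samples (-0.0066), by limma-voom (-0.20) and with quality weights (-0.57), and ran from -0.64 to 0.25 with 1 library left out. The cause of these changes was not tested. The other 10 genes chosen by p or level kept their direction under the 16 alternatives at gene level. Of all genes at an unadjusted p under 0.05, 74.6% were higher by edgeR, 52.0% with upper-quartile factors, 49.6% by limma-voom, 49.8% with quality weights, 48.0% with the length slope and 7.25% on log2(TPM + 1). Each of these genes has 1 transcript in the deposited transcript table, so its sum over transcripts is its gene value. Fitted across all transcripts by edgeR, they had adjusted p-values of 0.802 to 0.978, and 13 of 14 kept their direction, the exception being Ugt2b34 (-0.050). No paired analysis was possible because the labels number mice individually and give the groups no shared replicate numbers. A p-value here sets the group difference against the spread between mice, 3 per group, which edgeR estimates by drawing on all genes.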
